A study of Mus musculus with 9 samples.

Results

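The genes described are 9 genes of retinoic acid handling, chosen by symbol and mapped to the Ensembl identifiers of the count table, out of 38560 genes in all. Retinoic acid synthesis is represented by Aldh1a1, Aldh1a2 and Aldh1a3, breakdown by Cyp26a1, Cyp26b1 and Cyp26c1, binding in the cytoplasm by Crabp1 and Crabp2, and retinol uptake by Stra6. RNA was sequenced from cell populations of the mouse fetal gonad at 12.5 days post coitum (dpc), enriched by fluorescence-activated sorting and labelled Leydig, Interstitial and Sertoli, with 3 libraries each (A, B and C). The mice of all 3 populations were of the Sf1-eGFP strain, which carries a green fluorescent reporter driven by regulatory DNA of Nr5a1, the gene for the steroidogenic factor SF1. Gonads with testis cords were taken as testes, were dissociated with trypsin-EDTA or TrypLE, and were stained for CD31, a surface protein of germ and endothelial cells, so that these could be removed. The labels say that gonad and mesonephros were dissected and not whether they were parted before dissociation, and no source used here gives the fluorescence gates of the populations. RNA from about 10 sorts on different days went into a sample, and per the labels the samples of a population were A, B and a blend of A with B, with 100 ng of RNA in each. Replicate C is treated here as that blend because no other replicate is left for it, although no label says so. Tests therefore used replicates A and B, and replicate C is given as a value.

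Cells take up retinol, in part through STRA6, the receptor for its blood carrier RBP4. Retinol is oxidised to retinal by alcohol and retinol dehydrogenases, and retinal to retinoic acid by the ALDH1A enzymes. Retinoic acid is bound in the cytoplasm by CRABP proteins, acts on transcription through RAR and RXR receptors, and is inactivated by the CYP26 enzymes. In the fetal mouse testis, CYP26B1 of somatic cells lowers retinoic acid and so keeps germ cells from entering meiosis, and the neighbouring mesonephros is a known source of the molecule.

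Promoter sequences are shown for Cyp26b1 and Aldh1a1, a breakdown and a synthesis gene that were both highest in Sertoli and lowest in Interstitial libraries, and for Cyp26a1, the one gene among those matched with a retinoic acid response element motif in its window. RefSeq windows (GRCm38.p6) of 250 bases before to 50 bases after the start were matched for 7 of the 9 genes, in 11 windows. Each line gives the 250 bases before the RefSeq start, 5′ to 3′ on the strand of the gene. Gene positions given further below are those of GENCODE, whose starts differ. GENCODE starts Cyp26b1 at 84593908 and Cyp26a1 at 37697798, inside the windows shown, and Aldh1a1 at 20492715, past its upstream window. The positions are chr6:84593811-84594060 (minus strand) for Cyp26b1, chr19:20601718-20601967 and chr19:20492333-20492582 (plus strand) for the start sites of Aldh1a1, and chr19:37697558-37697807 (plus strand) for Cyp26a1. Capitals mark the motif.
Cyp26b1: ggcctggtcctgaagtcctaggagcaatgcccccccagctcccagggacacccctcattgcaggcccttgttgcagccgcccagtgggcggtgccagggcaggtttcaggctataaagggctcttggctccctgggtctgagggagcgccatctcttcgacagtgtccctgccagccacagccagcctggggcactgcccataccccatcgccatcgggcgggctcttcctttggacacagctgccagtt
Aldh1a1, downstream start: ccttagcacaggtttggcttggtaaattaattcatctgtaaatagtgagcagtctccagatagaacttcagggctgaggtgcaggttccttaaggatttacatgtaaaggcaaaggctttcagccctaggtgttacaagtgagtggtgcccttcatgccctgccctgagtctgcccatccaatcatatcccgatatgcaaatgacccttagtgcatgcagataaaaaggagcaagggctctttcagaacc
Aldh1a1, upstream start: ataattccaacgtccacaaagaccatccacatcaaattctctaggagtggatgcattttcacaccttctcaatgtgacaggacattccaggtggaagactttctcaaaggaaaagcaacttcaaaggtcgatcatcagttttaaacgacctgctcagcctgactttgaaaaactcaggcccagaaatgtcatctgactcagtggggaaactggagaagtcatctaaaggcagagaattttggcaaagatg
Cyp26a1: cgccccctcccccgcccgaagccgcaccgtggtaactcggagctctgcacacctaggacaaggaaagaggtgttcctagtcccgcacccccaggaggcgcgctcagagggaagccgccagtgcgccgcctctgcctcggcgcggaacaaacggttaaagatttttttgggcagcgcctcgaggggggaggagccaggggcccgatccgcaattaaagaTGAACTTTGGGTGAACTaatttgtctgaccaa

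The letters searched on both strands were direct repeats of AGGTCA, of the form AGTTCA, of the form GGGTCA or of the form GGTTCA spaced by 5, 2 or 1 bases, the form that RAR and RXR pairs bind, and CAAGGTCA, the form that SF1 binds. The one match in the 11 windows was a repeat spaced by 5 bases in Cyp26a1, on the minus strand from position -32 to -16 from the start, which reads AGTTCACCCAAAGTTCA on that strand. A repeat with this spacing occurs in 32 of all 32851 windows of the same length (0.0974%). Repeats spaced by 2 bases occur in 0.268% of windows and those spaced by 1 base in 0.222%, while the SF1 letters occur in 1.56%. A match describes letters and not a bound site, and no binding was measured in these samples.

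Reads in genes numbered 33.12 to 39.24 M per library (M, 1e6), and 3 reads, the limit that a count of 0 allows, correspond to 0.0764 to 0.0906 CPM, the count per 1e6 reads in genes. Levels are CPM scaled by the trimmed mean of M values (TMM) over the 9 libraries. Nr5a1, on which the reporter of these mice is built, averaged 199 ± 14.9 CPM in Leydig, 53.1 ± 2.99 in Interstitial and 390 ± 2.7 in Sertoli libraries (SD, n = 2 each). The 8 Sertoli markers summed to 844 to 872 CPM in Leydig, 144 to 170 in Interstitial and 2834 to 3069.9 in Sertoli libraries. The 6 fetal Leydig markers summed to 237 to 447 CPM in Leydig, 41.8 to 65.0 in Interstitial and 254 to 303 in Sertoli libraries, and 0 of the 6 were called in Leydig over Sertoli by edgeR's quasi-likelihood test (0 at an unadjusted p under 0.05). The defining markers thus set the Leydig population apart from Interstitial, where all 6 were higher in Leydig, but not from Sertoli. The 6 interstitial progenitor markers summed to 1336 to 1488 CPM in Leydig, 997 to 1036 in Interstitial and 372 to 396 in Sertoli libraries, and the 6 smooth muscle and pericyte markers to 208 to 229, 148 to 159 and 177 to 206 CPM. Markers of other cells were present, none of them at 0 in any library. Mesonephric epithelium summed to 49.8 to 55.6 CPM in Leydig, 99.4 to 117 in Interstitial and 27.9 to 30.6 in Sertoli libraries, and mesothelium to 98.5 to 109, 147 to 182 and 7.46 to 8.49 CPM in the same order. Germ cell markers summed to 50.9 to 214 CPM in Leydig, 769 to 881 in Interstitial and 58.5 to 89.7 in Sertoli libraries, and erythroid markers to 44.6 to 143, 5099 to 5519.8 and 56.5 to 129 CPM, both highest in Interstitial. Leydig B stood apart, with the most germ and erythroid markers and the fewest Leydig markers of the 3 Leydig libraries, and with 38.52% of reads outside genes.

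Aldh1a1 and Cyp26b1, which make and break down retinoic acid, were both highest in Sertoli libraries, intermediate in Leydig and lowest in Interstitial libraries. Aldh1a2, Crabp1 and Crabp2 ran in the opposite order, highest in Interstitial and lowest in Sertoli libraries. Stra6 was also highest in Interstitial libraries but was lowest in Leydig, Aldh1a3 passed the test in no comparison, and Cyp26a1 and Cyp26c1 were barely detected. Of the 9 genes, 7 passed the low-count filter. In Leydig over Sertoli, 3 were higher (Aldh1a2, Crabp1, Crabp2) and 3 lower (Aldh1a1, Cyp26b1, Stra6), where 37.5% of all 18048 genes tested were called (16.9% higher, 20.6% lower). In Leydig over Interstitial, 2 were higher (Aldh1a1, Cyp26b1) and 4 lower (Aldh1a2, Crabp1, Crabp2, Stra6), where 45.1% of all genes were called (22% higher, 23.2% lower). In Interstitial over Sertoli, 4 were higher (Aldh1a2, Crabp1, Crabp2, Stra6) and 2 lower (Aldh1a1, Cyp26b1), where 61.8% of all genes were called (32.7% higher, 29.1% lower). The median absolute log2 fold change of the 7 genes was 1.21 in Leydig over Sertoli, 0.82 in Leydig over Interstitial and 2.74 in Interstitial over Sertoli, beside 0.31, 0.33 and 0.5 over all genes tested. Of the calls over all genes, 45.1% were higher in Leydig over Sertoli and 52.9% in Interstitial over Sertoli, against 58.8% and 65.2% when scaled by library size alone, under which the direction of each called gene of the 9 was the same. Each population has 2 pools, so p-values reflect how far pools differ, which may be technical, and in bulk RNA fewer cells of a type and less RNA per cell cannot be told apart.

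**Figure D1:**
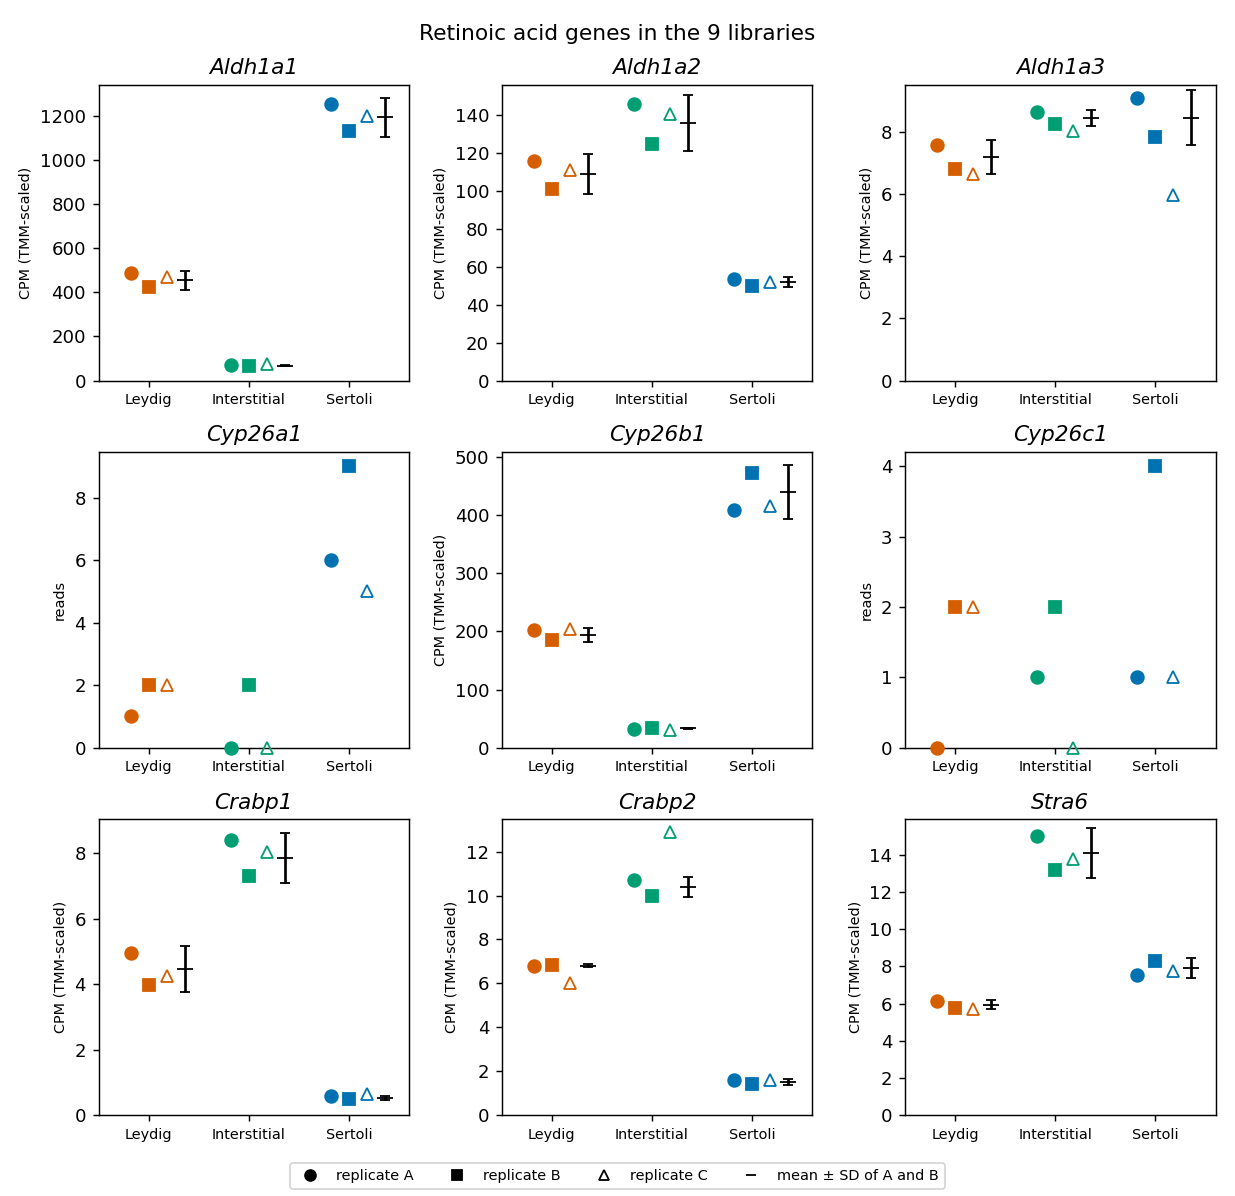
Level of each retinoic acid gene in the 9 libraries (CPM, or reads for Cyp26a1 and Cyp26c1, on linear axes), with a point per library for the Leydig, Interstitial and Sertoli populations, open for replicate C, and a bar for the mean ± SD of A and B. Aldh1a1 and Cyp26b1 were highest in Sertoli libraries and lowest in Interstitial, whereas Aldh1a2, Crabp1 and Crabp2 ran the other way.

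Aldh1a1 encodes an enzyme that oxidises retinal to retinoic acid and lies on chromosome 19 at 20492715 to 20643465, plus strand (GRCm38, ENSMUSG00000053279). Its level was 486, 423 and 469 CPM in Leydig A, B and C, 70.0, 65.2 and 73.9 CPM in Interstitial, and 1254, 1132 and 1199 CPM in Sertoli libraries. Every Leydig library lay above every Interstitial library and below every Sertoli library. The log2 fold change was -1.42 ± 0.09 (SE) in Leydig over Sertoli (2.68-fold lower, adjusted p = 6.98e-06 by edgeR's quasi-likelihood test). Against Interstitial it was 2.74 ± 0.09 (6.7-fold higher, adjusted p = 5.05e-07). Interstitial over Sertoli gave -4.16 ± 0.1 (17.9-fold lower, adjusted p = 1.29e-08), a larger size than that of 97.5% of the genes tested. Mice carry a close copy of this gene, Aldh1a7, and reads that fit both cannot be assigned with certainty. Aldh1a7 ran in the same order, at 46.2 to 52.6 CPM in Leydig, 7.96 to 10.0 in Interstitial and 77.1 to 78.7 in Sertoli libraries.

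Aldh1a2 encodes the enzyme that makes most retinoic acid in the early mouse embryo and lies on chromosome 9 at 71215789 to 71296243, plus strand (ENSMUSG00000013584). It was measured at 116, 101 and 111 CPM in Leydig, 146, 125 and 140.4 CPM in Interstitial, and 53.7, 50.0 and 52.0 CPM in Sertoli libraries. Leydig and Interstitial libraries lay well above the Sertoli libraries and did not overlap each other, though Leydig A and Interstitial B came close. Leydig over Sertoli gave a log2 fold change of 1.04 ± 0.1 (2.05-fold higher, adjusted p = 5.8e-05), and Interstitial over Sertoli 1.37 ± 0.1 (2.58-fold higher, adjusted p = 5.09e-06). The difference in Leydig over Interstitial was small, -0.33 ± 0.1 (1.25-fold lower, adjusted p = 0.0221). That call was lost without Leydig B (-0.24, adjusted p = 0.0905) and without Interstitial A (-0.22, adjusted p = 0.141). Where a library is left out, its population keeps 1 library, which is assumed to vary like the other groups. The summed markers of mesothelium and of mesonephric epithelium, given above, were in the same order of populations as Aldh1a2, and their part in the result was not tested. In Leydig over Sertoli, 4 of the 5 mesothelium markers but only 2 of the 6 mesonephric epithelium markers were called, all higher. Emx2 alone made up most of the mesonephric epithelium sum in Leydig (41.6 CPM) and Sertoli libraries (20.0 CPM).

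Aldh1a3 encodes the third retinal-oxidising enzyme of the family and lies on chromosome 7 at 66390890 to 66427517, minus strand (ENSMUSG00000015134). Its level was low, at 7.58, 6.82 and 6.65 CPM in Leydig, 8.65, 8.26 and 8.04 CPM in Interstitial, and 9.09, 7.84 and 5.99 CPM in Sertoli libraries. Sertoli libraries spanned the range of both other populations. No comparison passed the test, with log2 fold changes of -0.26 ± 0.13 in Leydig over Sertoli (adjusted p = 0.167), -0.24 ± 0.13 in Leydig over Interstitial (adjusted p = 0.185) and -0.03 ± 0.13 in Interstitial over Sertoli (adjusted p = 0.879).

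Cyp26b1 encodes the enzyme that clears retinoic acid in the fetal testis and lies on chromosome 6 at 84571414 to 84593908, minus strand (ENSMUSG00000063415). Its level was 202, 186 and 204 CPM in Leydig, 32.8, 34.2 and 31.0 CPM in Interstitial, and 408, 472 and 415 CPM in Sertoli libraries. The populations were fully separated, with Leydig between the others. Leydig over Sertoli gave a log2 fold change of -1.21 ± 0.08 (2.31-fold lower, adjusted p = 9.91e-06), Leydig over Interstitial 2.53 ± 0.09 (5.78-fold higher, adjusted p = 5.05e-07), and Interstitial over Sertoli -3.74 ± 0.09 (13.4-fold lower, adjusted p = 1.3e-08). The summed Sertoli markers were in the same order of populations as Aldh1a1 and Cyp26b1, and their part in the result was not tested. Without Leydig B, Cyp26b1 in Leydig over Sertoli had a log2 fold change of -1.1 and Aldh1a1 one of -1.28, and both remained called.

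Cyp26a1 and Cyp26c1 encode the other enzymes of retinoic acid breakdown and lie next to each other on the plus strand of chromosome 19, at 37697798 to 37701536 (ENSMUSG00000024987) and 37685581 to 37693398 (ENSMUSG00000062432), 4399 bases apart. Cyp26a1 is a well known target of retinoic acid, through response elements of its promoter. It had 1, 2 and 2 reads in Leydig, 0, 2 and 0 reads in Interstitial, and 6, 9 and 5 reads in Sertoli libraries, 27 reads in all. Every Sertoli library had more reads than any other library. The ratio of depth-scaled reads in A and B together was 0.214 for Leydig over Sertoli (95% exact interval 0.0398 to 0.758) and 0.134 for Interstitial over Sertoli (0.0149 to 0.578), where the intervals cover counting error only. Cyp26a1 was below the filter. When no filter was applied, Interstitial over Sertoli had an adjusted p of 0.0303 and Leydig over Sertoli one of 0.119. Cyp26c1 had 13 reads in all, with 0, 2 and 2 in Leydig, 1, 2 and 0 in Interstitial, and 1, 4 and 1 in Sertoli libraries, and the populations overlapped. A difference in Cyp26c1 was not detectable at this depth.

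Crabp1 encodes a protein that holds retinoic acid in the cytoplasm and lies on chromosome 9 at 54764748 to 54773110, plus strand (ENSMUSG00000032291). Its level was 4.96, 3.96 and 4.26 CPM in Leydig, 8.4, 7.31 and 8.04 CPM in Interstitial, and 0.567, 0.475 and 0.653 CPM in Sertoli libraries. All Sertoli libraries lay below 1 CPM, and the populations did not overlap. Leydig over Sertoli gave a log2 fold change of 3.06 ± 0.24 (8.33-fold higher, adjusted p = 1.94e-05), Leydig over Interstitial -0.82 ± 0.18 (1.77-fold lower, adjusted p = 0.00533), and Interstitial over Sertoli 3.88 ± 0.23 (14.7-fold higher, adjusted p = 1.51e-06).

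Crabp2, whose protein binds retinoic acid and passes it to RAR receptors in the nucleus, lies on chromosome 3 at 87948666 to 87953376, plus strand (ENSMUSG00000004885). It had 6.77, 6.85 and 6.03 CPM in Leydig, 10.7, 10.0 and 12.9 CPM in Interstitial, and 1.61, 1.43 and 1.58 CPM in Sertoli libraries. The order was that of Crabp1, again without overlap. Leydig over Sertoli gave 2.13 ± 0.16 on the log2 scale (4.38-fold higher, adjusted p = 1.48e-05), Leydig over Interstitial -0.61 ± 0.13 (1.53-fold lower, adjusted p = 0.00561), and Interstitial over Sertoli 2.74 ± 0.15 (6.69-fold higher, adjusted p = 1.11e-06). Endothelial markers were also lowest in Sertoli libraries, with a sum of 204 to 237 CPM in Leydig, 227 to 249.7 in Interstitial and 39.9 to 43.0 in Sertoli, and macrophage markers summed to 14.8 to 24.8, 42.9 to 64.4 and 4.7 to 6.33 CPM in the same order. In Leydig over Interstitial, 4 of the 6 endothelial markers were called higher and 1 lower, whereas 5 of the 6 macrophage markers were called lower. All 5 mesothelium markers, summed further above, were also called lower in that comparison. The part of these markers in the results of Crabp1 and Crabp2 was not tested.

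Stra6 encodes the membrane receptor for retinol-loaded RBP4 and lies on chromosome 9 at 58063788 to 58153996, plus strand (ENSMUSG00000032327). Its level was 6.11, 5.78 and 5.73 CPM in Leydig, 15.0, 13.2 and 13.8 CPM in Interstitial, and 7.51, 8.29 and 7.75 CPM in Sertoli libraries. Leydig libraries were the lowest, in contrast to the 5 genes above whose Leydig level lay between those of the other populations. Leydig over Interstitial gave a log2 fold change of -1.25 ± 0.13 (2.38-fold lower, adjusted p = 0.00013), and Interstitial over Sertoli 0.81 ± 0.12 (1.76-fold higher, adjusted p = 0.000465). Leydig over Sertoli gave -0.44 ± 0.13 (1.35-fold lower, adjusted p = 0.0278). This last call was lost without Leydig B (-0.35, adjusted p = 0.138), without Sertoli A (-0.5, adjusted p = 0.0607) and without Sertoli B (-0.37, adjusted p = 0.144), and also when scaled by library size alone (-0.33, adjusted p = 0.0779) or on lanes 1 and 2 only (-0.37, adjusted p = 0.0927). Genes that overlap Stra6 without sharing exons had few reads, Ccdc33 with at most 0.535 CPM in any library and Gm16131 with 0.

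**Figure D2:**
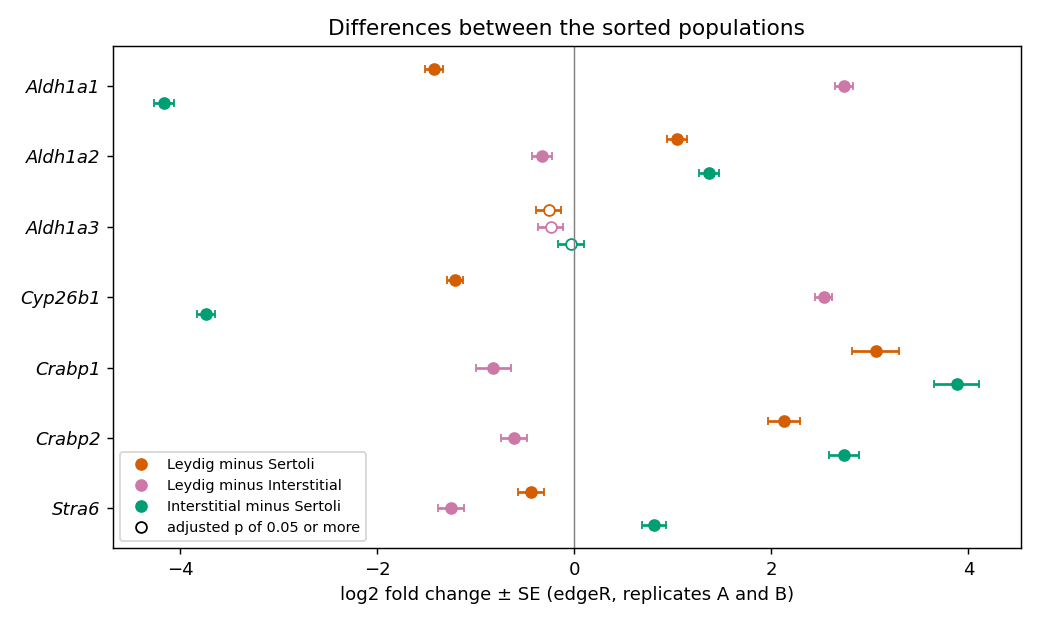
Log2 fold changes with standard errors of the 7 retinoic acid genes that passed the filter, for Leydig minus Sertoli, Leydig minus Interstitial and Interstitial minus Sertoli (filled where the adjusted p was under 0.05). Aldh1a1 and Cyp26b1 lie on the same side of 0 in each comparison, and Aldh1a2, Crabp1 and Crabp2 on the other.

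On a linear scale of CPM, the Leydig mean lay 34.4% of the way from the Interstitial to the Sertoli mean for Aldh1a1, 32.4% for Aldh1a2, 39.5% for Cyp26b1, 46.3% for Crabp1 and 40.2% for Crabp2. Aldh1a3 and Stra6 had a Leydig mean outside that interval, and Cyp26a1 and Cyp26c1 had too few reads to place. The share of all genes with a Leydig mean inside that interval was not counted. An intermediate Leydig level is therefore not shown to be particular to these genes. The level in replicate C lay between those in A and B in 11 of the 21 values of the 7 genes that passed the filter, and differed from their mean by a median of 4.5%. The largest departure was 29.3%, in Aldh1a3 of the Sertoli population. The authors' deposited tables, where each listed gene has an adjusted p under 0.05 and differs at least 2-fold, hold 5 of the 9 genes for Leydig over Sertoli (Aldh1a1, Aldh1a2, Cyp26b1, Crabp1 and Crabp2), 3 for Leydig over Interstitial (Aldh1a1, Cyp26b1 and Stra6) and 5 for Interstitial over Sertoli (the same as for Leydig over Sertoli). In the authors' deposited table for Leydig over Sertoli, Cyp26b1 has a log2 fold change of -1.11 and Crabp1 one of 2.94.

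Divided by exon length, the populations differed in which synthesis gene led. Aldh1a1 averaged 92 ± 9.04 CPM per kilobase in Leydig, 13.7 ± 0.674 in Interstitial and 242 ± 17.6 in Sertoli libraries (SD, n = 2 each). Aldh1a2 averaged 48 ± 4.66, 60 ± 6.57 and 22.9 ± 1.17 CPM per kilobase in the same order. Aldh1a1 therefore made up 65.0% of the summed Aldh1a transcripts per kilobase in Leydig, 18.2% in Interstitial and 90.7% in Sertoli libraries, and Aldh1a2 made up 33.9%, 79.4% and 8.6%. With the length of the principal transcript in place of all exons joined, a choice made after seeing the data, the share of Aldh1a1 was 79.4%, 31.5% and 95.2%. The order of the populations and the leading gene in each were the same with either length.

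Among the breakdown genes, Cyp26b1 made up 99.4 to 99.9% of the summed Cyp26 transcripts per kilobase in every population, with 36.2 ± 2.21 CPM per kilobase in Leydig, 6.25 ± 0.188 in Interstitial and 82.2 ± 8.53 in Sertoli libraries. The ratio of summed Aldh1a to summed Cyp26 transcripts per kilobase was 3.9 ± 0.147 in Leydig, 12 ± 1.59 in Interstitial and 3.26 ± 0.571 in Sertoli libraries. Interstitial libraries, at 10.9 to 13.6, did not overlap the others, whereas Leydig (3.79 to 4.0) and Sertoli (2.86 to 3.67) lay close together. With the principal transcript length the ratio was 5.61 in Leydig, 12.2 in Interstitial and 5.47 in Sertoli libraries, and the ranges of Leydig (5.46 to 5.76) and Sertoli (4.79 to 6.15) overlapped. The Aldh1a1 to Cyp26b1 ratio varied less, at 2.54 ± 0.0944 in Leydig, 2.19 ± 0.174 in Interstitial and 2.97 ± 0.522 in Sertoli libraries, whereas the Aldh1a2 to Cyp26b1 ratio was 1.32, 9.61 and 0.281. With the principal transcript length the Aldh1a1 to Cyp26b1 ratio was 4.46, 3.86 and 5.22. Crabp1 and Crabp2 together came to 10.7 CPM per kilobase in Leydig, 17.6 in Interstitial and 1.8 in Sertoli libraries, with a Crabp2 to Crabp1 ratio of 0.938, 0.802 and 1.77. That ratio was 1.33, 1.14 and 2.52 with the principal transcript length, so which of them led in Leydig and Interstitial libraries depends on the length used. These ratios describe transcripts and not enzyme activity or retinoic acid, neither of which was measured.

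**Figure D3:**
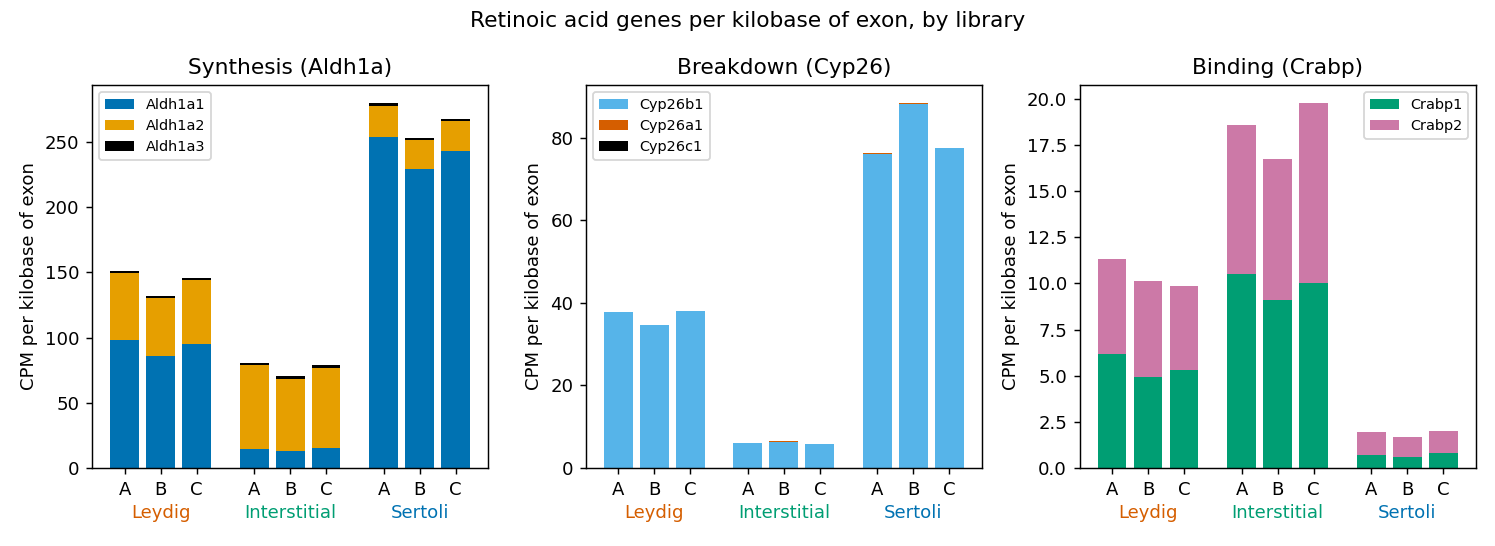
Retinoic acid genes per kilobase of exon in each library, ordered Leydig, Interstitial, Sertoli, as stacked bars of CPM per kilobase for the synthesis (Aldh1a), breakdown (Cyp26) and binding (Crabp) genes. Aldh1a1 made up 65.0% of Aldh1a transcripts in Leydig, 18.2% in Interstitial and 90.7% in Sertoli libraries, Cyp26 was almost all Cyp26b1, and Crabp1 and Crabp2 were highest in Interstitial libraries.

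Other genes of the pathway were taken from lists of 56 genes, of which 45 passed the filter. In Leydig over Sertoli 14 were higher and 14 lower, in Leydig over Interstitial 14 were higher and 13 lower, and in Interstitial over Sertoli 15 were higher and 19 lower. Over all genes tested, 16.9% were higher and 20.6% lower in Leydig over Sertoli, 22% and 23.2% in Leydig over Interstitial, and 32.7% and 29.1% in Interstitial over Sertoli. Their median log2 fold changes were -0.08, 0.06 and -0.1, beside -0.01, 0.01 and 0.04 over all genes tested.

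The 6 retinoic acid receptor genes had similar summed levels, at 176 to 190.1 CPM in Leydig, 176 to 190.2 in Interstitial and 175 to 186 in Sertoli libraries, but single receptors differed. Rarb, a receptor gene that is itself induced by retinoic acid, had 3.28, 2.98 and 2.82 CPM in Leydig, 13.3, 9.91 and 13.2 CPM in Interstitial, and 0.482, 0.475 and 0.735 CPM in Sertoli libraries. Rarb was separated between all 3 populations, with log2 fold changes of 2.67 ± 0.26 in Leydig over Sertoli (adjusted p = 6.77e-05), -1.9 ± 0.18 in Leydig over Interstitial (adjusted p = 0.000109) and 4.57 ± 0.24 in Interstitial over Sertoli (adjusted p = 7.14e-07). Rarg was in the same order, averaging 4.99 ± 0.643 CPM in Leydig, 9.77 ± 0.585 in Interstitial and 1.62 ± 0.0276 in Sertoli libraries, and was called in every comparison. Rara was highest in Sertoli libraries, at 48.3 ± 1.73 CPM in Leydig, 44.1 ± 2.1 in Interstitial and 69.3 ± 5.12 in Sertoli libraries, and was lower in Leydig (-0.55) and in Interstitial (-0.68) than in Sertoli. Among the RXR partners, Rxrg was higher in Leydig (2.24) and in Interstitial (2.64) than in Sertoli, where it averaged 0.203 CPM. Rxra passed no test in the main fit, with 0.18 in Leydig over Sertoli (adjusted p = 0.09), 0.18 in Leydig over Interstitial (adjusted p = 0.0819) and 0 in Interstitial over Sertoli. It was called in both Leydig comparisons without Leydig B (0.32 and 0.26) and with the replicate letter as a block (0.18, adjusted p = 0.0497, and 0.18, adjusted p = 0.0451). With all 9 libraries it was called too (0.26, adjusted p = 0.00147, and 0.19, adjusted p = 0.00987). That fit counts replicate C as independent, so its p-values are too small if C is a blend of A and B. Rxrb differed by 0 in Leydig over Sertoli, by -0.27 in Leydig over Interstitial and by 0.27 in Interstitial over Sertoli. The calls of Rxrb were lost without Leydig A (-0.25) or Interstitial B (-0.23) and on lanes 1 and 2 (-0.24, adjusted p = 0.0602) in Leydig over Interstitial and without Sertoli A (0.22) in Interstitial over Sertoli.

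Of the genes known as targets of retinoic acid, 7 of 9 passed the filter. In Leydig over Sertoli 4 were higher and 2 lower, in Leydig over Interstitial 1 was higher and 5 lower, and in Interstitial over Sertoli 5 were higher and 1 lower, beside 37.5%, 45.1% and 61.8% of all genes called in these comparisons. The 9 target genes summed to 246 to 258 CPM in Leydig, 354 to 416 in Interstitial and 98.1 to 103 in Sertoli libraries. The sums were in the order seen for Aldh1a2 and opposite to that of Cyp26b1, and the cause was not tested. Most of each sum came from Meis1 (means of 107, 156 and 58.2 CPM), Tgm2 and Meis2. Rarres1 and Rec8, given below, were not in that order. Cyp26a1, a target counted with the breakdown genes, had its most reads in Sertoli libraries. Tgm2, a transglutaminase gene induced by retinoic acid, averaged 68.7 ± 6.36 CPM in Leydig, 118 ± 19.5 in Interstitial and 20.2 ± 0.594 in Sertoli libraries, and Meis2, a homeobox gene, 63.6 ± 1.35, 95.9 ± 12.4 and 14.9 ± 0.114 CPM. The log2 fold changes in Leydig over Sertoli were 1.74 for Tgm2, 2.06 for Meis2 and 1.53 for Rarres2, and those in Interstitial over Sertoli 2.53, 2.66 and 1.84. The homeobox genes Cdx1 (2.29) and Meis1 (1.4) were also higher in Interstitial than in Sertoli. Rarres1 ran the other way, at -1.17 in Leydig over Sertoli, 1.03 in Leydig over Interstitial and -2.2 in Interstitial over Sertoli. Rec8, a meiotic cohesin gene, was lowest in Leydig libraries, at -1.32 in Leydig over Sertoli and -1.07 in Leydig over Interstitial, and Cdx1 was lower in Leydig than in Interstitial (-1.89). In Leydig over Interstitial, the call of Cdx1 was lost without Leydig A (-1.51), and that of Rarres1 without Leydig A (0.96), Interstitial A (1.1) or Interstitial B (0.94). With every library kept, DESeq2 called neither Cdx1 (adjusted p = 0.071) nor Rarres1 (adjusted p = 0.0662) in that comparison, and Rarres1 was not called on lanes 1 and 2 (0.91, adjusted p = 0.0883). Stra8, the gene of germ cell entry into meiosis, stayed under the filter, with at most 0.368 CPM in any library. It had 2, 3 and 1 reads in Leydig, 14, 8 and 15 in Interstitial, and 3, 0 and 2 in Sertoli libraries. The summed germ cell markers were also highest in Interstitial libraries, and their part in the reads of Stra8 was not tested.

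Among genes of retinol carriage and storage, Lrp2, the endocytic receptor megalin of kidney tubules and other epithelia, averaged 12.9 ± 0.424 CPM in Leydig, 57.6 ± 12.9 in Interstitial and 2.27 ± 0.24 in Sertoli libraries, with log2 fold changes of 2.48, -2.16 and 4.64 in Leydig over Sertoli, Leydig over Interstitial and Interstitial over Sertoli. The summed mesonephric epithelium markers were in the same order as Lrp2, and their part in this result was not tested. Of these 6 markers, 2 were called higher in Leydig over Sertoli and 4 were not called. Emx2, at 41.6 CPM in Leydig, 39.8 in Interstitial and 20.0 in Sertoli libraries, was not called in Leydig over Interstitial. It made up most of the Leydig and Sertoli sums, so their order rests largely on this gene. Among the markers not called in Leydig over Sertoli, Pax8 averaged 6.22 and 5.84 CPM and Pax2 0.294 and 0.506 CPM in Leydig and Sertoli libraries. The retinol receptor gene Stra6l was higher in Leydig (1.3) and in Interstitial (2.1) than in Sertoli, and Lrat, which esterifies retinol for storage, was lower in Interstitial than in Sertoli (-1.61). The Leydig call of Stra6l was lost without Leydig B (0.81), Sertoli A (1.63) or Sertoli B (1.03), and the call of Lrat without Interstitial A (-1) or Sertoli B (-1.32), while it was -2.33 without Interstitial B. With every library kept, Stra6l in Leydig over Sertoli was not called by DESeq2 (adjusted p = 0.0684) or limma voom (adjusted p = 0.0832), nor Lrat in Interstitial over Sertoli by DESeq2 (adjusted p = 0.0607).

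Of the genes that interconvert retinol and retinal, 14 of 17 passed the filter, with 3 higher and 5 lower in Leydig over Sertoli, 6 higher and 1 lower in Leydig over Interstitial, and 3 higher and 7 lower in Interstitial over Sertoli. The numbers called, 8, 7 and 10 of 14, stand beside 37.5%, 45.1% and 61.8% of all genes. Rdh10, the main retinol dehydrogenase of the mouse embryo, averaged 19.2 ± 1.1 CPM in Leydig, 29.4 ± 5.33 in Interstitial and 11.4 ± 0.609 in Sertoli libraries, the order seen for Aldh1a2, and was called in every comparison (0.72, -0.62 and 1.34). Adh1, an alcohol dehydrogenase, averaged 23.1 ± 8.91 CPM in Leydig, 4.54 ± 0.519 in Interstitial and 38.9 ± 3.07 in Sertoli libraries, the order seen for Aldh1a1. Its log2 fold change was 2.34 in Leydig over Interstitial and -3.12 in Interstitial over Sertoli. Dhrs3, which turns retinal back into retinol, averaged 31.3 ± 2.5 CPM in Leydig, 26.2 ± 1.13 in Interstitial and 14.0 ± 0.208 in Sertoli libraries and was higher in Leydig than in Sertoli (1.13). The near-identical dehydrogenase genes Rdh1, Rdh7 and Rdh9 had at most 2.42 CPM in any library, and reads may be split between them. They were lower in Interstitial than in Sertoli (-2.31, -4.7 and -2.59) and higher in Leydig than in Interstitial (2.19, 3.54 and 1.59). Rdh7 had 55 reads in Leydig A and B together and 5 in Interstitial. Scaled by TMM, the ratio was 11.9 for Leydig over Interstitial (95% exact interval 4.82 to 38.2, for counting error only).

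In Leydig over Sertoli, Rdh7 (-1.17), Rdh9 (-1), Adh7 (-2.01) and Rdh12 (1.34) were called with mean levels under 2 CPM. With every library kept, DESeq2 called none of them (adjusted p = 0.0736, 0.125, 0.0599 and 0.132 in that order). Rdh9 was at -0.5 with all 9 libraries (adjusted p = 0.114) and at -0.52 on lanes 1 and 2 (adjusted p = 0.291), and Rdh12 was not called on those lanes either (1.31, adjusted p = 0.121). The call of Rdh7 was lost without Leydig A (-0.93) or Sertoli B (-1.05), that of Adh7 without Leydig B (-1.75) or Sertoli A (-1.85), and that of Rdh12 without Leydig A (1.18), Sertoli A (1.31) or Sertoli B (1.37). The call of Rdh9 was lost without any one of the 4 libraries, at fold changes of -1.08 to -0.92 on the log2 scale, beside -1 with all 4. Adh7 (-3.34, from 6 reads in Interstitial A and B together and 57 in Sertoli) and Rdh12 (1.25) were also called in Interstitial over Sertoli. Adh7 ran from -4.86 without Interstitial B to -2.46 without Interstitial A, and the call of Rdh12 was lost without Interstitial B (1.13), Sertoli A (1.22) or Sertoli B (1.28), by DESeq2 (1.25, adjusted p = 0.117) and on lanes 1 and 2 (1.37, adjusted p = 0.0662).

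Cyp1b1, a cytochrome that can also make retinoic acid in the embryo, was highest in the libraries labelled Leydig, at 242, 207 and 235 CPM in its A, B and C libraries, against 93.4 to 100.1 CPM in Interstitial and 87.9 to 97.9 CPM in Sertoli libraries. The log2 fold change was 1.24 ± 0.09 in Leydig over Sertoli (adjusted p = 1.21e-05) and 1.25 ± 0.09 in Leydig over Interstitial (adjusted p = 1.81e-05), and 0 ± 0.09 in Interstitial over Sertoli (adjusted p = 0.973). None of the 7 synthesis, breakdown, binding and uptake genes that passed the filter had its highest mean level in Leydig libraries. How many of all genes were highest in Leydig libraries was not counted. Fabp5, whose protein can carry retinoic acid to another nuclear receptor, was lower in Interstitial than in Sertoli (-1), and the coactivator gene Ncoa3 was higher in Interstitial than in Sertoli (1.18).

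Among the gonadal regulators set beside these genes, SOX9 and SF1 are known in the mouse to activate Cyp26b1. Sox9 averaged 50.8 ± 3.09 CPM in Leydig, 11.8 ± 2.32 in Interstitial and 138 ± 29.8 in Sertoli libraries. Sox9 and Nr5a1 were in the order of Cyp26b1, as were the summed Sertoli markers, and their part in its result was not tested. Regulatory DNA of Nr5a1 drives the reporter of these mice, so the order of Nr5a1 may depend on how the cells were sorted. The log2 fold changes of Sox9 were -1.47 in Leydig over Sertoli, 2.11 in Leydig over Interstitial and -3.57 in Interstitial over Sertoli, and those of Nr5a1 were -1, 1.9 and -2.9. Fgf9, a growth factor gene of the testis, was lower in Leydig (-1.57) and in Interstitial (-2.36) than in Sertoli. It was higher in Leydig than in Interstitial (0.8), so it too was in the order of Cyp26b1. Dmrt1, a regulator of testis development, was lower in Leydig than in Sertoli (-1.62) and, unlike Sox9 and Nr5a1, also lower in Leydig than in Interstitial (-0.74, adjusted p = 0.00118). The summed germ cell markers were also lower in Leydig (50.9 to 214 CPM) than in Interstitial libraries (769 to 881 CPM), and their part in this difference was not tested. Foxl2, a gene of the ovary, averaged under 1 CPM in every population and was lower in Interstitial than in Sertoli (-2.03), a call lost without Interstitial A (-1.85) or Sertoli A (-1.74) and by DESeq2 (-2.07, adjusted p = 0.0665).

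**Figure D4:**
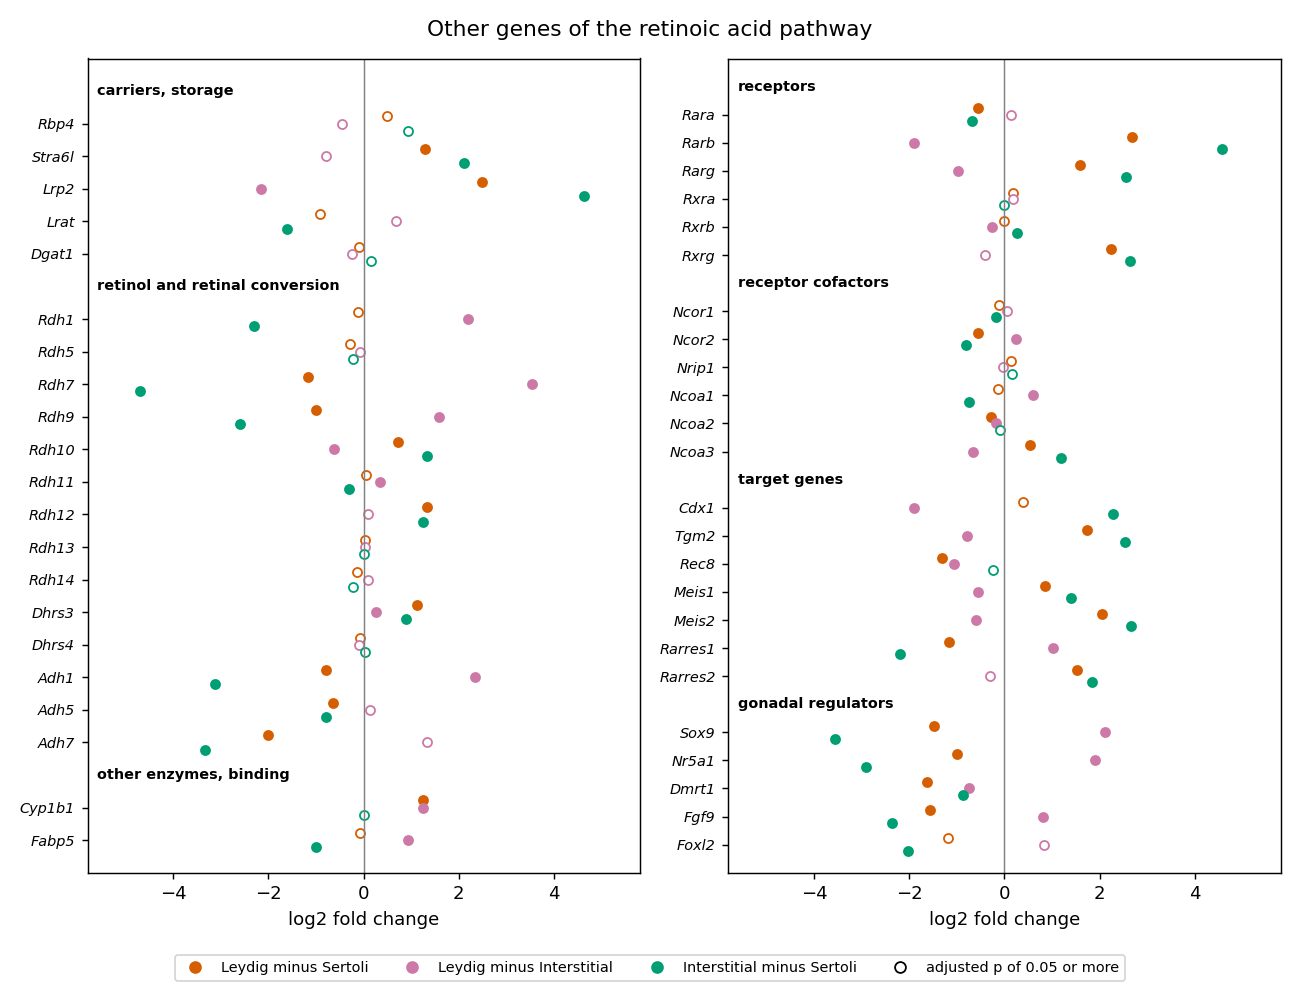
Log2 fold changes of the 45 other retinoic acid pathway genes that passed the filter, by list, for Leydig minus Sertoli, Leydig minus Interstitial and Interstitial minus Sertoli, with open points where the adjusted p was 0.05 or more. Rarb (4.57) and Lrp2 (4.64) were higher and Sox9 (-3.57) lower in Interstitial than in Sertoli.

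Genes whose levels followed each retinoic acid gene most closely were ranked among 11550 genes with a mean of at least 5 CPM, by the root mean square difference of log2(CPM + 1), each centred on its own mean, over the 9 libraries. Nearest to Aldh1a1 were Mmd2 (0.096), Tmprss13 (0.125) and Wnt6 (0.129), and nearest to Cyp26b1 were Me1 (0.098), Scara5 (0.124) and Pak3 (0.136). Aldh1a1 and Cyp26b1 were each other's nearest among the 6 of the 9 genes with a mean of at least 5 CPM, at 0.202. Nearest to Aldh1a2 were Gria3 (0.047), Prnp (0.054) and Sema6a (0.069), to Crabp2 B4galt6 (0.113), Hoxc4 (0.129) and Itga1 (0.135), and to Stra6 Cadps2 (0.087), Fry (0.096) and Postn (0.115). Wnt6, for example, averaged 105 CPM in Leydig, 18.1 in Interstitial and 323 in Sertoli libraries, and Hoxc4 13.1, 20.8 and 3.65 CPM. The nearest to Aldh1a3 were the ribosomal protein pseudogenes Rpl10a-ps1 (0.078) and Rpl5-ps1 (0.079) and the predicted gene Gm2000 (0.082), whose reads may belong to near-identical copies. Crabp1 had a mean under 5 CPM and was not ranked.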

How the data were processed

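Total RNA of 3 sorted populations of the mouse fetal gonad was depleted of ribosomal RNA and made into stranded libraries, 3 per population over 4 lanes each, per the labels' protocols. The deposited table gives raw counts of reads for each gene in each lane of a library. Reads were aligned with TopHat2 2.0.6 to mm10 and counted with HTSeq, per the submitters' processing notes. No source used here gives the annotation release or the strand setting, so overlapping genes may share reads. Tables of the authors' limma results were deposited too, with log2 fold changes, average log2 expression, p-values with adjusted p-values, and scores (moderated t and log odds), per the file headers.

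Lanes were summed, giving 33.12 to 39.24 M reads in genes per library (M, 1e6). Reads in no gene (32.23 to 38.52%) and ambiguous reads (0.62 to 0.77%) were left out. Symbols, coordinates and exon lengths came from GENCODE M21 (GRCm38), which named 36638 genes, and the authors' tables named 34 more. Rbpr2 was matched as Stra6l through RefSeq synonyms. Libraries A and B of the 3 populations (6 libraries, 3 residual degrees of freedom) were fitted together with edgeR 4.0.16 in R 4.3.3 (glmQLFit, glmQLFTest, TMM, filterByExpr), which left 18048 genes, with a common biological coefficient of variation of 0.0871. Unless DESeq2, limma voom or the authors are named, an adjusted p comes from edgeR's quasi-likelihood test with Benjamini-Hochberg adjustment over all genes tested. Genes were called at 0.05. The code of the fit was also run on simulated counts with known changes in Leydig alone and the spread estimated from these libraries. That run checks the code and not the results given here. Levels are CPM with the SD over A and B, fold changes are given with their SE, and intervals and floors cover counting error only.

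Replicates A and B were not within sampling noise of each other in any population (median squared difference 3.51 to 4.19 times sampling noise), nor was replicate C within noise of their sum (1.75 to 2.94 times). The labels do not say that a letter marks a shared day, so the letters were not used as pairs. Alternatives were RLE size factors, library size alone, no filter, a filter of 1 CPM in 2 libraries, DESeq2 1.42.0, limma 3.58.1 (voom), all 9 libraries, a replicate block, lanes 1 and 2 only, and leaving out each library. Figures were drawn with matplotlib 3.10.9.

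The genes named are the 9 described, and from the wider lists every RAR and RXR gene and every gene called with an absolute log2 fold change of at least 1, plus, for each of the 9 with a mean of at least 5 CPM, the 3 genes nearest in pattern. A gene named by the rule in one comparison is given in others too, and Aldh1a7, Ccdc33, Gm16131 and Stra8 were added after their values were seen. The 9 genes, the lists and the tests were chosen with earlier results of these data known. Some items of the lists are not reported here and are left out of their counts and sums.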

Additional observations from a re-analysis of the deposited data

How the results depend on the processing

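Of the log2 fold changes of the 7 tested retinoic acid genes, 260 values under the alternatives kept their direction and their side of the threshold, 7 lost the call (all of Stra6 in Leydig over Sertoli or Aldh1a2 in Leydig over Interstitial) and 6 changed sign. The sign changes were of Aldh1a3 in Interstitial over Sertoli, not called, at 0.14 by library size alone, 0.03 with no filter, 0.16 with all 9 libraries, 0.08 on lanes 1 and 2, 0.07 without Interstitial B and 0.08 without Sertoli A. Without single libraries the fold change of Aldh1a3 ran from -0.14 to 0.08. Among the other listed genes 809 values kept direction and call, 45 lost the call, 9 gained it and 8 changed sign. The sign changes were of Rxra in Interstitial over Sertoli (-0.02 with RLE size factors, -0.01 with the 1 CPM filter, -0.02 with DESeq2 and -0.02 without Sertoli A), of Rxrb in Leydig over Sertoli (0 with RLE size factors, 0 with DESeq2 and from -0.04 to 0.05 without single libraries, lowest without Sertoli A) and of Rarres2 in Leydig over Interstitial (from -0.59 to 0.02 without single libraries, highest without Interstitial A), all uncalled. On lanes 1 and 2, Rxrg was at 3.13 in Leydig over Sertoli and 3.5 in Interstitial over Sertoli and Rdh9 at 2.23 in Leydig over Interstitial, and with all 9 libraries Rdh7 was at 2.92 in Leydig over Interstitial. The causes were not tested.

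Counts of called genes stayed within 1.5 times: 5 to 6 of the 9 in either Leydig comparison and 6 to 7 in Interstitial over Sertoli. Without single libraries, all genes called ranged from 4703 to 5984 in Leydig over Sertoli, 5535 to 7547 in Leydig over Interstitial and 9367 to 9699 in Interstitial over Sertoli. Scaling by library size alone moved the median of all genes by 0.102 in Leydig over Sertoli, -0.064 in Leydig over Interstitial and 0.168 in Interstitial over Sertoli, and the share of called genes that were higher to 58.8%, 40.2% and 65.2%, beside 45.1%, 48.7% and 52.9%.

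With the replicate letter as a block, 6 of the 9 genes were called in each comparison, with the same calls, 7839 of all genes in Leydig over Sertoli, 9364 in Leydig over Interstitial and 12013 in Interstitial over Sertoli. Rxra became called (0.18 in both Leydig comparisons). The differences of A and B correlated between populations at 0.13 (Leydig and Sertoli), 0.34 (Leydig and Interstitial) and 0.2 (Interstitial and Sertoli), over 2 letters. Depth limits Cyp26a1 and Cyp26c1, with 27 and 13 reads in all.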
